A study of Mus musculus with 50 samples.

Results

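Tumours that carried an amino acid change in Myc were set beside tumours that carried none. A tumour was a carrier if the deposited variant table gave it a percent value at any missense variant of Myc, a variant that replaces an amino acid, and 22 of the 44 tumours in the table met this rule. The other 22 were the non-carriers. Carrier status was read from the Myc calls themselves, so the Myc values below are a description with no test, and Myc was left out of all comparisons between the groups.

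All 44 tumours were mesenteric lymph node tumours of the genotype IL6Myc, a transgenic mouse in which multiple myeloma develops and whose name joins interleukin 6 with Myc. The labels call the cells malignant plasma cells, which genomic DNA cannot check through marker expression. The series design names a separate mouse for each tumour. The labels list 45 tumours and 5 kidneys of wild-type Balb/c mice as controls, of which the fourth tumour and all kidneys are not analysed here, and inherited variants were therefore not separated from acquired ones by a normal sample. Carriers and non-carriers shared tissue, genotype and assay, exome sequencing of genomic DNA, and the labels give no age, sex or treatment, nor the promoters of the transgenes. Tumours are numbered in the order of the deposited samples.

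Myc is a transcription factor that drives growth and division and is switched on abnormally in most plasma cell tumours. In B cells the enzyme AID (activation-induced deaminase) mutates the antibody genes during the immune response, turning cytosine to uracil by preference after certain short sequences. AID also strikes other highly transcribed genes near their starts, among them Myc, the kinase gene Pim1 and genes of the linker histones, the proteins that hold neighbouring nucleosomes together. A plasma cell tumour descends from a cell that has been through this process, and its antibody genes keep the record.

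Each value in the table was taken as the read share, the percent of reads at a site that carry the alternate base, and a dot meant no call. The table gives no read depth. Low read shares rest on an unknown number of reads, and a tumour without a call may have had too few. A call made in 1 tumour is termed private. The 44 tumours fell into 3 ranges of titles, and the labels do not say what the ranges stand for. Titles 1199 to 1293 gave 3 carriers and 1 non-carrier, titles 1501 to 1592 gave 9 and 9, and titles 1601 to 1628 gave 10 and 12. These are called the early, middle and late ranges, and values within them are given beside the main results. Within the middle range titles 1501 to 1568 gave 4 carriers and 7 non-carriers, and titles 1569 to 1592 gave 5 and 2. Values for the middle range do not separate these parts, which count apart where 4 title ranges are used.

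The carriers held 26 distinct missense variants in Myc (chromosome 15, 61985341 to 61990361 on GRCm38.p6), of which 23 were private, in 30 calls. There was 1 missense call in 15 carriers, 2 in 6 carriers and 3 in 1 carrier. Read shares ran between 3.66% and 40.86%, with a median of 20.7%. All 30 stood under 50%. Whether a call lay in the chromosome 15 gene or in transgene copies of Myc cannot be told from the table. The effect of such copies on a read share is likewise unknown.

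The highest share was p.Gln49His in tumour 19, at 40.86%, in a tumour that also held p.Asp102Asn at 17.81%. Tumour 37 held p.Leu115Pro at 28.99% and p.Ser155Ala at 31.48%. Tumour 43 held p.Ser188Ala at 31.43% and p.Leu121Ser at 24.44%. Tumour 5 held p.Asn108Lys at 32.98%, tumour 39 p.Asp63Tyr at 28.83%, tumour 11 p.Glu116Asp at 25.76% and tumour 2 p.Cys187Trp at 24.24%. In 13 carriers the highest missense share was at least 20%.

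Leu115 changed to valine in tumours 10, 31 and 33, at 23.08%, 8.51% and 20%, and to proline in tumours 1 and 37, the first at 21.31%. Tumours 18 and 42 both carried p.Asp125Val, at 14.49% and 12.12%. Further changes were p.Asp113Gly at 12.5% in tumour 14, p.Tyr31Asn at 22.22% in tumour 20, p.Ser219Arg at 10% in tumour 34, p.Phe68Ile at 17.19% with p.Val92Gly at 22.22% in tumour 21, and p.Ile144Ser at 21.92% in tumour 35. Tumour 33 also held p.Pro36Ser at 13.22%, and tumour 18 p.Tyr89Cys at 14%.

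Of the 26 variants, 24 changed codons 31 to 219, in the amino-terminal part that holds the transcription activation domain. All codons are numbered as in the deposited annotation, which may differ from other numberings of Myc. A stretch chosen after the calls were seen, between p.Asp102Asn and p.Asp125Val, held 10 of them in 13 carriers. The substitutions were spread over all 6 classes, counted from the pyrimidine base, with 4 C>A, 4 C>G, 3 C>T, 4 T>A, 7 T>C and 4 T>G variants.

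**Figure D1:**
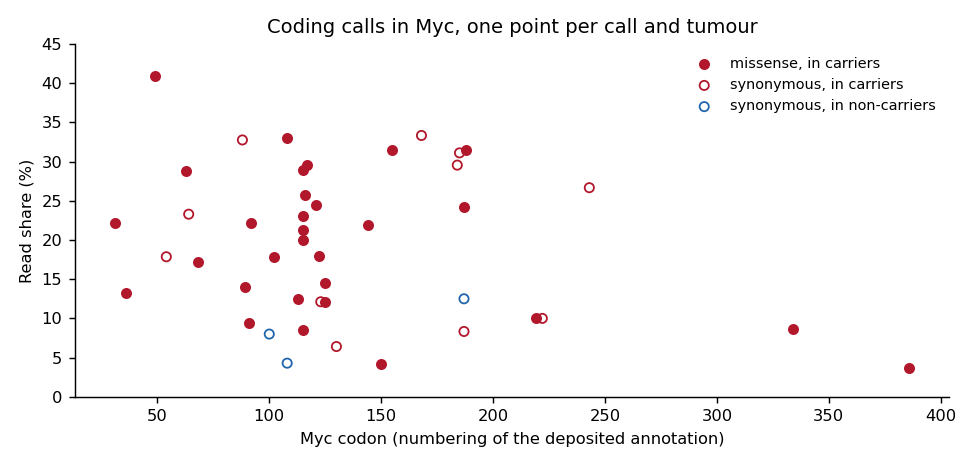
Each point is 1 coding Myc call in 1 tumour, with the codon on the x axis and the read share in percent on the y axis. Codons are numbered as in the deposited annotation. Filled red points are missense calls in carriers, open red points synonymous calls in carriers and open blue points synonymous calls in non-carriers. Missense calls gather up to codon 219, and only p.Tyr334Cys and p.Lys386Met lie beyond it.

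Just inside the rule were 5 carriers whose highest missense share was under 10%. Among these were tumour 41 with p.Tyr334Cys at 8.7%, tumour 31 with p.Leu115Val at 8.51% and tumour 36 with p.Lys386Met at 3.66%. Just outside it lay 9 non-carriers with 10 Myc calls that were not missense. Of these calls 6 were in the 5′ UTR, 3 were synonymous and 1 was intronic, and their shares reached 21.43% in tumour 30. The carriers had 24 such calls in 14 tumours, 13 in the 5′ UTR and 11 synonymous. In all, 31 tumours had some Myc call and 13 had none. In 10 of 22 carriers the highest missense share was above the median share of the tumour's own private single-base variants (SNVs).

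Private calls were somewhat more numerous in carriers, but neither they nor any other per-tumour measure passed the test. Over 23 measures, compared by two-sided permutation tests with 100000 resamples, 0 (0%) had an adjusted p (Benjamini-Hochberg) under 0.05, while 6 (26.1%) had an unadjusted p under 0.05. Counting private calls outside Myc, the carriers had a lowest, median and highest of 130, 225 and 1700, against 106, 199.5 and 457 in the non-carriers. The groups overlapped widely, and 13 of 22 carriers lay above the non-carriers' median. Means were 351 ± 352 in carriers and 224 ± 97.8 in non-carriers (SD, n = 22 each), a difference of 127 (p = 0.0883, adjusted p = 0.259).

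Single tumours held much of that difference. Tumour 2 had 1700 private calls, of which chromosome 2 held 1060 and chromosome 11 held 198, and tumour 5 had 908, with 607 on chromosome 1. Both are carriers of the early range. Carrier tumours 1 and 11 held 187 private calls on chromosome 11 and 159 on chromosome 18, and the one non-carrier with a chromosome of over 100 private calls was tumour 3, with 110 on chromosome 11. Without tumour 2 the difference in private calls was 62.95 (adjusted p = 0.366), without tumours 2 and 5 it was 31.9 (adjusted p = 0.615), and without all such chromosomes it was 31.7 (adjusted p = 0.469). Within the middle range carriers averaged 313 ± 136 and non-carriers 283 ± 77.8 private calls (SD, n = 9 each, exact permutation p = 0.590), and within the late range 184 ± 40.6 and 160 ± 39.4 (n = 10 and 12, permutation p = 0.174). Where every call under 20% read share was dropped, Myc calls included, 13 carriers and 31 non-carriers were left, and private calls differed by 217.1 (adjusted p = 0.00178). Here the same 20% share chose both the carriers and the calls counted. Carriers with only lower Myc missense shares became non-carriers, so this comparison is not an independent test. In this setting the difference was 68.2 without tumours 2 and 5 (adjusted p = 0.0261) and 102.5 within title ranges (adjusted p = 0.280).

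Of the 23 measures, small insertions and deletions had the smallest p. Private insertions or deletions numbered 28 at the lowest, 59 at the median and 273 at the highest in carriers, against 24, 45.5 and 84 in non-carriers. Of the carriers, 19 of 22 lay above the non-carriers' median. The difference in means was 28.6 (78.0 ± 52.7 against 49.4 ± 13.4, p = 0.0026, adjusted p = 0.0607), which narrowly missed the threshold. Without tumours 2 and 5 it was 14.5 (adjusted p = 0.189). Within title ranges it was 19.98 (adjusted p = 0.162), with 67.8 ± 24.6 in carriers and 47.2 ± 11.1 in non-carriers of the middle range (exact permutation p = 0.0339, n = 9 each). Private SNVs differed by 98.5 (p = 0.146, adjusted p = 0.280), with medians of 149.5 in carriers and 145 in non-carriers. Without tumour 2, which had 1427, the difference was 43.6 (adjusted p = 0.466).

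Private SNVs also stood at higher read shares in carriers, again without passing the adjusted test. The median read share of a tumour's private SNVs was 12.1% at the lowest, 16.5% at the median and 45.5% at the highest in carriers, against 10.5%, 14.02% and 23.1% in non-carriers. The 3 carriers of the early range, tumours 1, 2 and 5, had the highest values, between 36.4% and 45.5%. The difference in means was 5.24 percentage points (p = 0.0110, adjusted p = 0.126), and 3.27 points within title ranges (adjusted p = 0.113). Calls of at least 20% share numbered a median of 108 in carriers and 83 in non-carriers (difference in means 128, adjusted p = 0.126). Tumour 2 held 1520 of them. Without it the difference was 66.4 (adjusted p = 0.198), without tumours 2 and 5 it was 37.3 (adjusted p = 0.317), and within title ranges it was 71.8 (adjusted p = 0.392). Private protein-altering calls had medians of 24.5 and 22.5 (adjusted p = 0.267). Calls shared with other tumours, most of which stand near 50%, averaged 3029 ± 1282 in carriers and 3306 ± 1160 in non-carriers (adjusted p = 0.531).

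**Figure D2:**
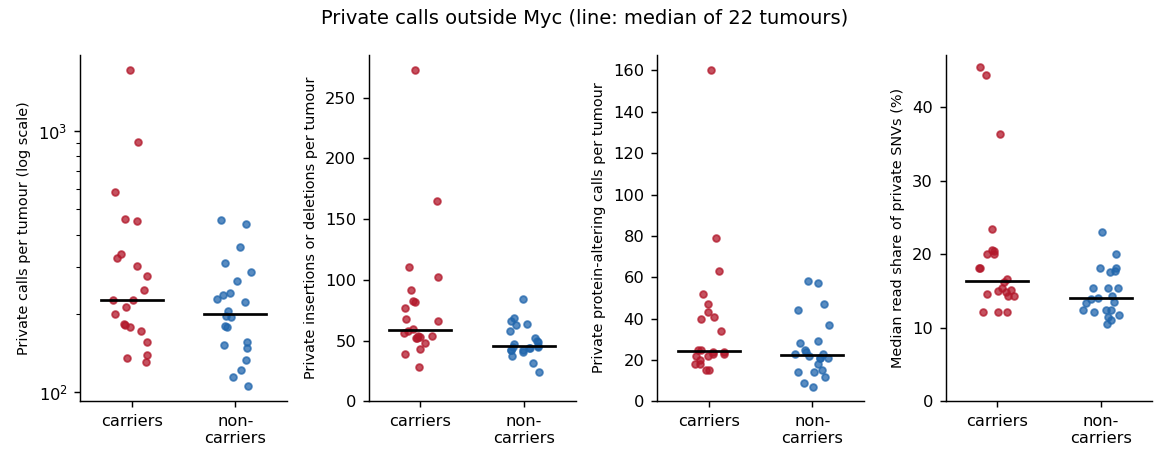
Each point is 1 tumour, carriers in red and left, non-carriers in blue and right, with black lines at the medians. From left to right the y axes give private calls (log scale), private insertions or deletions, private protein-altering calls and the median read share of private SNVs in percent. The groups overlap in all 4, and single carriers reach 1700 private calls and 273 insertions or deletions.

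The antibody loci held more private calls in carriers, chiefly in the kappa light chain locus Igk, and neither count passed the adjusted test. In the 3 loci, heavy chain Igh and light chains Igk and Igl, carriers had a lowest, median and highest of 1, 8 and 16 private calls, against 0, 5 and 12 in non-carriers. All 22 carriers and 20 of 22 non-carriers had at least 1. Means were 8.09 ± 4.83 in carriers and 5.18 ± 3.70 in non-carriers (SD, n = 22 each), a difference of 2.91 (p = 0.0330, adjusted p = 0.126), and within title ranges the difference was 2.79 (adjusted p = 0.195). The highest carrier was tumour 19 with 16 calls, followed by tumours 2, 14 and 18 with 14 each. The highest non-carrier was tumour 27 with 12.

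Igk gave most of this. It held 116 private calls in 21 carriers and 66 in 17 non-carriers, with means of 5.27 ± 3.88 and 3 ± 2.6 per tumour (difference 2.27, p = 0.0301, adjusted p = 0.126). Igl, the lambda light chain locus, held 36 calls in 12 carriers and 23 in 11 non-carriers (adjusted p = 0.509). Igh held 26 calls in 16 carriers and 25 in 11 non-carriers, with nearly equal means of 1.18 and 1.14 per tumour (adjusted p = 1). In the middle range Igk averaged 6.78 ± 3.35 in carriers and 2.89 ± 2.98 in non-carriers (exact permutation p = 0.0261, n = 9 each, adjusted p = 0.390), and in the late range 3.9 ± 4.31 and 2.75 ± 2.22 (permutation p = 0.465, n = 10 and 12). The middle range mixes titles 1501 to 1568 and 1569 to 1592, over which carriers and non-carriers were unevenly split. With the 18 carriers of a private Myc missense variant set against the other 26 tumours, the Igk difference was 3.15 (adjusted p = 0.0492), and it was again 3.15 without tumours 2 and 5 (adjusted p = 0.0810). The other 26 include carriers 1, 10, 31 and 42, whose only Myc missense variants were not private. The difference between the middle and late ranges was itself tested and did not pass (p = 0.210, adjusted p = 0.974). As a percent of all private calls the antibody loci made up 3.13 ± 2.31 in carriers and 2.37 ± 1.76 in non-carriers (adjusted p = 0.402), and the part of the higher number of private calls in the higher antibody-locus count was not tested.

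The read shares of antibody-locus calls were described next. Of 178 calls in carriers 89 had a share of at least 20%, against 29 of 114 in non-carriers. Per tumour, calls of at least 20% numbered a lowest, median and highest of 0, 3 and 12 in carriers and 0, 0.5 and 8 in non-carriers, with 17 of 22 carriers above the non-carriers' median. The means were 4.05 ± 3.66 and 1.32 ± 2.10, a difference of 2.73 (p = 0.00445). This measure and 3 like it were chosen after the values by locus had been seen. Adjusted over all 27 measures its p was 0.0601, and it did not pass. Within title ranges the difference was 2.55 (adjusted p = 0.0998), with means of 5 in carriers and 1.67 in non-carriers of the middle range (exact permutation p = 0.0705, n = 9 each) and 2.7 and 1.08 in the late range (permutation p = 0.165, n = 10 and 12). With carriers taken by private Myc missense variants alone it did pass, at 2.79 (adjusted p = 0.0453). Carriers 1, 10, 31 and 42 then counted as non-carriers. Calls under 20% averaged 4.05 in carriers and 3.86 in non-carriers (adjusted p = 0.925).

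The median share of a tumour's antibody-locus calls had a group median of 20.6% in 22 carriers and 7.17% in 20 non-carriers, with means of 21.9 ± 12.2 and 13.2 ± 12.4 (adjusted p = 0.111) and a difference of 7.91 points within title ranges (adjusted p = 0.164). Among carriers the values were highest in tumours 5, 43 and 19, between 40.3% and 41.8%, and lowest in tumour 15, at 4.92%. Non-carriers 8, 23 and 30 stood at 48.9%, 35.5% and 28.6%, above most carriers. Carriers also had higher shares among all private SNVs outside Myc, as above, a measure that includes the antibody loci. That difference's part in this one was not tested.

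**Figure D3:**
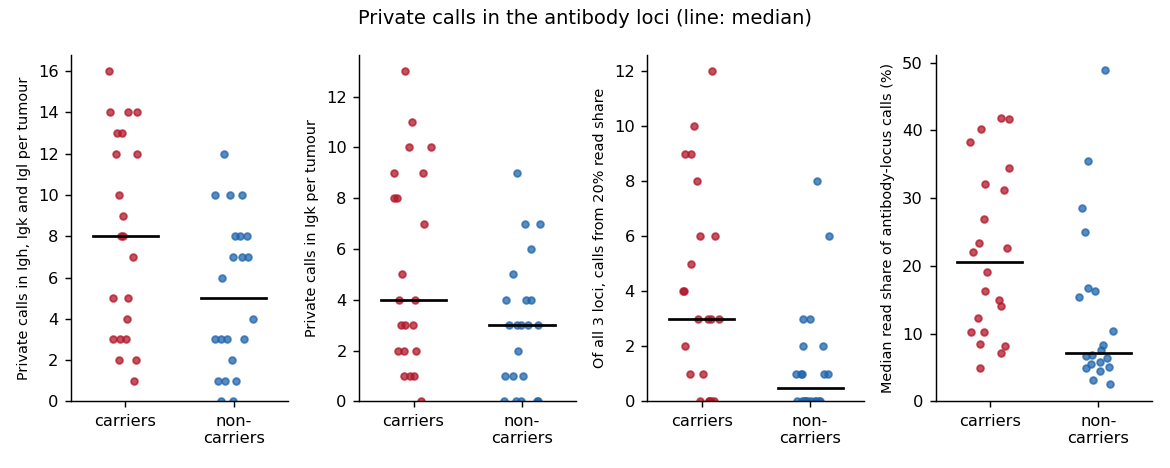
Each point is 1 tumour, carriers in red and left, non-carriers in blue and right, with black lines at the medians. From left to right the y axes give private calls in Igh, Igk and Igl together, those in Igk, those of all 3 loci with a read share of at least 20%, and the median read share of these calls in percent. Carriers reach higher counts, with medians of 8 against 5 in the left panel and 3 against 0.5 in the third, and the groups overlap in every panel.

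No substitution class passed the test. Outside Myc and the antibody loci, C>T made up 30.3% ± 6.11 of private SNVs in carriers and 29.9% ± 5.46 in non-carriers (SD, n = 22 each, adjusted p = 0.836). T>C made up 24.7% ± 5.73 and 22.1% ± 5.89 (adjusted p = 0.280). T>G made up 16.7% ± 4.65 and 15.4% ± 3.70 (adjusted p = 0.431). In the late range alone T>G made up 18.4% ± 3.90 in carriers and 14.4% ± 3.30 in non-carriers (permutation p = 0.0159, adjusted p = 0.293, n = 10 and 12), and in the middle range 16.6% and 16.5% (exact permutation p = 0.981, n = 9 each). The difference between these ranges did not pass its own test (p = 0.129, adjusted p = 0.974). C>A made up 15.4% ± 8.98 and 18.6% ± 9.24 (adjusted p = 0.402), and its highest values in both groups, 35.8% in carrier tumour 14 and 39.7% in non-carrier tumour 16, came from the middle range. The rarer C>G and T>A classes differed by under 1 percentage point. With permutation within the 3 title ranges no class passed either, with the smallest adjusted p at 0.392. Within the antibody loci 54.9% of 173 private SNVs were transitions in carriers and 50% of 110 in non-carriers.

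Among other genes that AID is known to strike, Pim1 was hit in the most tumours and did not pass the test. A list of 46 such genes was used, which leaves out Myc, and 19 of them had a private call of any effect in some tumour. Carriers had 26 pairs of gene and tumour in 13 tumours, and non-carriers had 14 pairs in 10 tumours. Carriers thus held 65% of the list's pairs, beside 56.0% of the pairs over all 5548 genes with a private call. Per tumour, carriers averaged 1.41 ± 1.53 calls in the list and non-carriers 0.727 ± 1.08 (p = 0.120, adjusted p = 0.275). Of the 19 genes 11 were hit in more carriers, 6 in more non-carriers and the rest in equal numbers.

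Pim1 (chromosome 17, 29490785 to 29496111) encodes a serine/threonine kinase that promotes cell survival. It had private calls in 6 carriers, tumours 2, 10, 15, 34, 36 and 43, and in 1 non-carrier, tumour 13 (Fisher's exact p = 0.0946, adjusted p = 1). Over 520 genes with a private call in at least 3 tumours, 0 (0%) passed Fisher's exact test at an adjusted p under 0.05, 0 (0%) had an unadjusted p under 0.05, and an exact test within title ranges gave 2 (0.385%) at the unadjusted level and 0 (0%) after adjustment. Pim1 had the smallest p. The calls in carriers were p.Lys24Asn at 9.52% in tumour 34, p.His68Tyr at 26.92% with a synonymous call at 26.42% in tumour 2, 2 synonymous calls at 29.55% and 26.67% in tumour 10, another at 35.29% in tumour 43, a 5′ UTR call at 30% in tumour 36 and an intronic one at 4.69% in tumour 15. Non-carrier tumour 13 held p.Ile66Leu at 5.88% and p.Pro81Ser at 11.11%.

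Of these calls, 5 lie in a stretch whose sequence was at hand, and are shown because their neighbouring bases bear on the sequence that AID prefers. The reference sequences are RefSeq's on GRCm38.p6, plus strand, 5′ to 3′, and the capital marks the base that was called as changed.
Pim1 p.His68Tyr, carrier tumour 2, chr17:29491522-29491542: ggccattaagCacgtggagaa
Pim1 p.Ser97 synonymous, carrier tumour 43, chr17:29491705-29491725: agaaggtgagCtcggacttct
Pim1 intronic A to T, carrier tumour 15, chr17:29491590-29491610: agaccctctcAtgggtgggtg
Pim1 p.Pro81Ser, non-carrier tumour 13, chr17:29491655-29491675: cactctgcagCccaatggcac
Pim1 p.Ile66Leu, non-carrier tumour 13, chr17:29491516-29491536: ccaggtggccAttaagcacgt
The 3 C-to-T calls each follow the letters AG, which makes AGC. This is one of the preferred triplets AAC, AGC, TAC and TGC, searched on both strands with the C as the struck base. A call at an A cannot match a search for a struck C. In the 300 bases that cover these sites 21 of 182 C or G bases (11.5%) are in such a triplet, and all 32851 promoter windows of that length (100%) hold at least 1. A match is a description of the letters only.

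The linker histone genes had private calls in 7 carriers and in 1 non-carrier, tumour 22. Carriers held 81.8% of these genes' pairs of gene and tumour, beside 56.0% over all genes. This grouping of list members was made after their values were seen and was not tested. Hist1h1c was hit in 4 carriers, tumours 34, 36, 42 and 43, and in the non-carrier (p = 0.345, adjusted p = 1). Its changes in carriers included p.Pro28Ser at 24.14%, p.Lys81Asn at 14.89% and p.Pro182Ser at 12.77%, and the non-carrier held p.Ala69Thr at 7.41%. Hist1h1d was hit in 3 carriers, with p.Thr93Ile at 27.27% in tumour 10, p.Leu63Phe at 27.78% in tumour 18 and 2 changes at 39.58% in tumour 43, p.Ala180Thr and p.Ala181Gly, against a synonymous call at 19.35% in the non-carrier. Hist1h1e was hit in carriers 2 and 10, by p.Lys169Glu at 53.33% and p.Gly103Asp at 23.53%.

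The core histone gene Hist1h2bc was hit in carriers 19 and 39, at 42.11% and 43.7%, and in non-carrier 26 at 3.77%. Cd83, a surface protein of activated B cells, was hit in carriers 17 and 42 and in 0 non-carriers, with 3 calls between 7.14% and 12%. The chemokine receptor gene Cxcr4 was hit in 0 carriers and in non-carriers 32 and 40, at 4.71% and 5.56%. Socs1, an inhibitor of cytokine signalling, was hit in carrier 19 at 36.36% and in non-carrier 16 at 10.53%. Genes hit in 2 or 3 tumours could not pass Fisher's exact test. There an unadjusted p under 0.05 needed at least 5 tumours, all of them carriers. A p under 0.05 divided by the number of genes tested needed 12, more than the 7 tumours with a private Pim1 call. For such genes a failed adjusted test does not decide whether the groups differ.

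**Figure D4:**
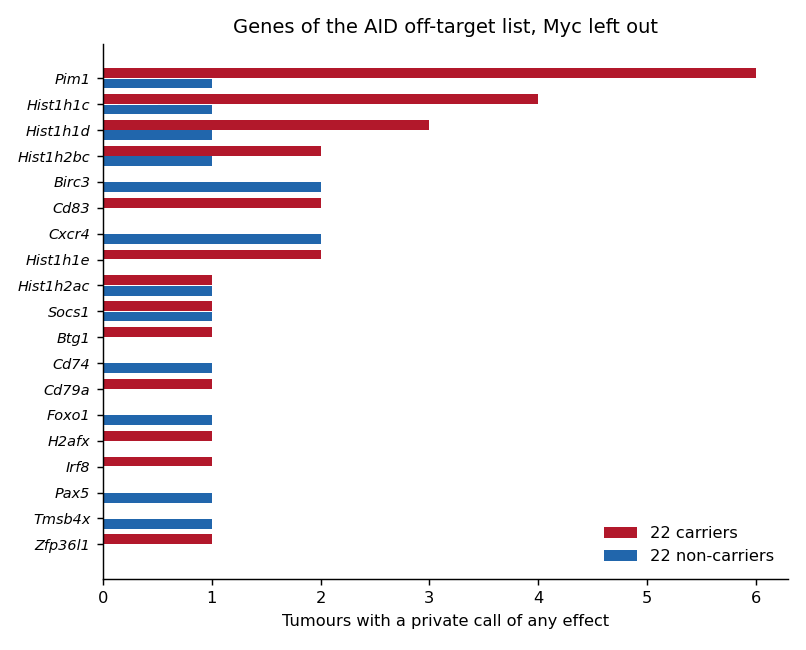
Bars give the number of tumours with a private call of any effect for each of the 19 genes of the AID list that had one, Myc left out. Red bars above are the 22 carriers and blue bars below are the 22 non-carriers. Pim1 stands at 6 carriers against 1 non-carrier, and most other genes at 1 or 2 tumours.

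Pathways around Myc and interleukin 6 gave few private calls in either group. In the Myc network list of 24 genes, which holds Myc's partners and the enzymes that control its stability, carriers had 4 pairs of gene and tumour and non-carriers 8. Carrier tumours 5 and 11 held missense calls at 43.24% and 43.86% in Huwe1, a ubiquitin ligase gene, and carrier tumour 10 a 5′ UTR call at 6.52% in Max, Myc's DNA-binding partner. Carrier tumour 2 held 10 calls in Mga, which encodes another partner of Max, and they lie on the chromosome 2 that held 1060 of its private calls. The kinase gene Aurka was hit, in introns, in 0 carriers and 3 non-carriers.

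In the list for interleukin 6, JAK kinases and STAT factors carriers had 5 pairs and non-carriers 1. Stat3, the main transcription factor downstream of interleukin 6, was hit in carriers 2 and 39, by an intronic call at 40.74% and by p.Lys658Arg at 30.37%. The call in tumour 2 lies on chromosome 11, which held 198 of that tumour's private calls. Il6ra, the interleukin 6 receptor, had p.Val264Leu at 12.5% in carrier 10. In the RAS and MAPK list the counts were 2 and 4 pairs, and the one hot spot change, p.Gln61Lys of Nras, was in non-carrier 32 at 17.65%. The NF-kB list gave 4 and 4 pairs. The p53, apoptosis and DNA damage list gave 7 and 10, with p.Tyr123Ser of Trp53 in non-carrier 3 at 45.28%. The Trp53 call likewise lies on chromosome 11, which held 110 private calls of tumour 3. The list of myeloma and B cell genes gave 9 and 8, and its most often hit member, Sp140, a nuclear body protein of immune cells, was hit in 4 carriers and 4 non-carriers. These shares lie on both sides of the 56.0% that carriers held over all genes.

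Counting every protein-altering call, private or shared, 505 genes were altered in 3 to 41 tumours and 0 (0%) passed Fisher's exact test at an adjusted p under 0.05. At the unadjusted level 2 genes did (0.396%). An exact test within title ranges gave 12 (2.38%) at that level and 0 (0%) after adjustment. The median difference over the 505 genes was -4.55 percentage points, carriers minus non-carriers, with 161 genes altered in more carriers, 264 in more non-carriers and 80 in equal numbers. Many genes shared the same tumours, since the 505 showed 284 distinct patterns.

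Cep72, which encodes a protein of the centrosome, had the smallest p. Its p.Leu277Pro (chromosome 13, position 74051480) was called in 6 carriers, tumours 1, 2, 10, 11, 14 and 17, and in 0 non-carriers (Fisher's exact p = 0.0211, adjusted p = 1), at shares between 37.7% and 66.67%. The neighbouring genes Brd9, a bromodomain subunit of chromatin remodelling complexes, Ahrr, a repressor of the aryl hydrocarbon receptor, and Zdhhc11, of the palmitoyltransferase family, were altered in the same 6 carriers and in non-carrier 13 (Fisher's exact p = 0.0946 for Brd9 and Ahrr). All 6 tumours with the Cep72 change had titles of the early or middle range and 0 came from the late one. Between positions 74019225 and 74051480 of chromosome 13, 3 variants, the Cep72 change among them, were called in exactly these 6 tumours, at a median share of 49.5%. These genes thus shared their tumours and are not separate observations. No normal sample was used, and whether these calls were inherited or acquired was not tested.

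The other gene with an unadjusted p under 0.05 was 1110008F13Rik, altered by p.Val62Ile on chromosome 2 in 5 carriers and 13 non-carriers (p = 0.0305, adjusted p = 1). It heads a group of chromosome 2 genes that were altered in fewer carriers. Samhd1, which encodes an enzyme that degrades dNTPs, Zmynd8, which encodes a reader of histone marks, and Znfx1, which encodes a helicase-like protein, were each altered in 4 carriers and 11 non-carriers (p = 0.0546). Cass4, Fam209, Ncoa3, a coactivator of nuclear receptors, and Zbp1, a sensor of Z-form nucleic acids, were each altered in 5 carriers and 12 non-carriers (p = 0.0618). The median share of each of their main variants lay between 44.64% and 51.61%. Mid1, a ubiquitin ligase gene on the X chromosome, was altered in 10 carriers and 17 non-carriers (Fisher's exact p = 0.0618). Its p.Pro384Ala was called in 10 carriers and 12 non-carriers, at a low median share of 7.52%. Its p.Glu523Asp was called in 2 carriers and 5 non-carriers, at a median share of 25.64%. The chromosome 2 genes share many of their tumours and are not separate observations.

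In Cdk4, which encodes a cell cycle kinase, the same deletion was called in 4 carriers and 0 non-carriers, at shares between 26.6% and 34.52% and a median of 29.3% (Fisher's exact p = 0.108, adjusted p = 1). The table annotates it as a splice site variant and writes it as running through an intron to the start of the next exon. Whether the Cdk4 gene itself lacked these bases was not tested. Among genes with private calls, the next smallest p values after Pim1 were tied at 0.108 (adjusted p = 1). Bpifb2, Brd9, Dst, Lrrc43, Med12l and Ppp1r12b had a private call in 4 carriers and 0 non-carriers, and Gbp2b and Gm13139 in 0 carriers and 4 non-carriers. Over the whole table of private calls, 281 of the 520 genes were hit in more carriers, 178 in more non-carriers and 61 in equal numbers.

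Chromosome read shares were taken as the deviation of a tumour's SNVs, those called in at least 2 tumours, from the median share of the same SNVs over the tumours that carry them. A gain or loss of a chromosome can move this value away from 0, but a value away from 0 does not by itself show one. Of 20 chromosomes 0 (0%) passed the permutation test at an adjusted p under 0.05, and 3 (15%) had an unadjusted p under 0.05. These were chromosomes 1, 9 and 19, each with a higher mean in carriers and an adjusted p of 0.232 (0.272 within title ranges), although chromosome 19 turned round, at -0.0669, where at least 10 SNVs were asked for.

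On chromosome 1 the deviation was -0.625 points at the lowest, 0 at the median and 10 at the highest in carriers, against -3.61, -0.0725 and 0 in non-carriers. The mean was 0.994 ± 2.87 in carriers and -0.378 ± 0.784 in non-carriers (SD, n = 22 each, p = 0.0138). Carrier tumours 35 and 2, at 10 and 8.61 points, stood apart from the rest. With carriers taken by private Myc missense variants alone, the difference was 1.695 points (adjusted p = 0.0070), and 0.696 points without tumours 2 and 35 (adjusted p = 0.0490). Carriers 1, 10, 31 and 42 then counted as non-carriers. On chromosome 9 carriers averaged 1.62 ± 4.12 and non-carriers -0.667 ± 2.69 (p = 0.0348). Carriers 10, 11, 15, 20 and 35 lay at least 5 points up, between 6.67 and 11 points, against non-carrier 23 at 8.63. Chromosome 15, which holds Myc, could be read in 12 carriers and 15 non-carriers from as few as 5 SNVs each. Its mean was 0.998 ± 2.81 in carriers and -0.406 ± 2.51 in non-carriers (p = 0.186, adjusted p = 0.721), and the difference within title ranges was 1.64 (adjusted p = 0.487).

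Counting any chromosome at least 5 points up or down, 13 carriers had 23 such pairs of tumour and chromosome among 395, against 14 pairs among 395 in 9 non-carriers. The widest deviations were those of carrier tumour 35 on chromosome 2, at -40.8 points, and carrier tumour 10 on the X chromosome, at -23.1 points. Over all carriers the fewest SNVs in a tumour were 7 on chromosome 2 and 5 on the X chromosome. The numbers for tumours 35 and 10 themselves are not given here. Whether a chromosome was gained or lost was not tested. The widest in a non-carrier was -13.8 points, on chromosome 11 of tumour 3.

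**Figure D5:**
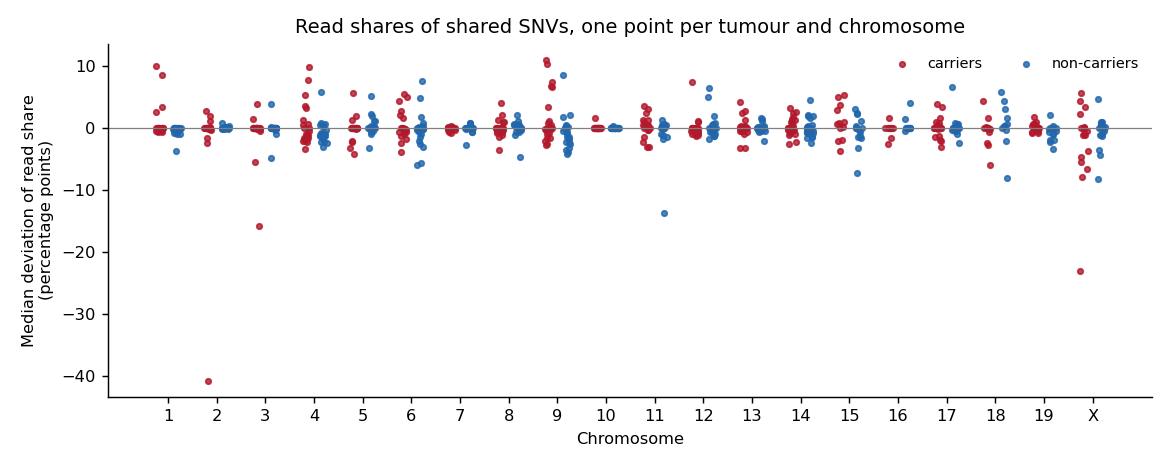
Each point is 1 tumour on 1 chromosome with at least 5 SNVs, red and left for carriers, blue and right for non-carriers. The y axis gives the median deviation of read share in percentage points, with a grey line at 0, and the x axis the chromosome. Most points lie within 5 points of 0, carriers 10, 11, 15, 20 and 35 lie above this on chromosome 9, and the lowest point is carrier tumour 35 on chromosome 2.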

How the data were processed

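The data were 1 annotated variant table. Per the labels' protocols, exomes were captured with Agilent probes for 50 Mb of mouse exons. Per the submitters' processing notes, GATK and the build mm10 were used. No aligner, filter or annotation tool is named in the labels or headers. In the deposited cells a percent was taken, from its values, as the read share of the alternate base, and the deposited counts column gives the number of tumours with a call. Depth is unknown, so no intervals were set and precision is limited by the number of tumours. Of 25823 rows, 199 with several alternate alleles were left out as the rule asked, and 25624 were analysed. One empty cell was read as no call. Gene symbols turned to dates, 7 of them, were not named.

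Members and lists were chosen with earlier results of these data known. Carriers and non-carriers were compared by two-sided permutation tests of means (100000 resamples, or exact enumeration for 9 against 9) and per gene by two-sided Fisher's exact tests, with Benjamini-Hochberg adjustment over 23 measures, 505 or 520 genes, or 20 chromosomes. Antibody loci and gene positions came from the RefSeq table of GRCm38.p6. Protein-altering means missense, stop, start, frameshift, in-frame and essential splice site variants. Named are Myc with its missense calls, the 10 genes of smallest p in each gene test, list genes with private calls in at least 3 tumours or known as targets of hypermutation, and 2 chromosomes; other genes and chromosomes were named after their values were seen. A few named items are not reported here. Alternatives were permutation within 3 or 4 title ranges, each range alone, a read share minimum of 20%, other carrier definitions, medians, stricter minimums, keeping the rows of several alleles, and leaving out dense chromosomes or, added later, tumour 2 or tumours 2 and 5. The code was tested on simulated data. Python 3.11.15, scipy 1.17.1, numpy 2.4.6 and pandas 2.3.3 were used.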

Additional observations from a re-analysis of the deposited data

How the results depend on the processing

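Of the results recomputed under the alternatives, 457 kept their direction and side of the threshold, 18 newly passed it, 5 counts moved and 22 turned round. With calls of at least 20% read share only, which leaves 13 carriers and 31 non-carriers, the difference in private calls was 217.1 (adjusted p = 0.00178), and 9 per-tumour measures passed in place of 0. In this setting the same share chose both the carriers and the calls counted, so these passes are not an independent test. Without tumours 2 and 5 as well, 5 passed, with private calls at 68.2 (adjusted p = 0.0261). With permutation within 3 title ranges as well, 0 passed. With carriers taken by private missense calls alone (18 against 26), 1 measure passed, private Igk calls at 3.15 (adjusted p = 0.0492), and 1 chromosome, chromosome 1 at 1.695 points (adjusted p = 0.0070), which was still the 1 chromosome past the threshold, at 0.696 points, without tumours 2 and 35; antibody-locus calls of at least 20% share differed by 2.79 (adjusted p = 0.0453). In that setting the 26 include carriers 1, 10, 31 and 42, whose only Myc missense variants were not private. Over the other alternatives the adjusted p for private calls ran between 0.203 and 0.828. These combined settings were chosen after seeing the data. The causes were not tested. The values that turned round were small and did not pass. For the percent of C>T they were -0.758 within 4 title ranges, -1.04 in the late range, -0.178 for any Myc call, -0.214 without dense chromosomes and -2.36 for medians. For C>G they were 1.29 in the middle range and 0.394 for medians, and for T>A 0.605 in the middle range. Igh calls gave -0.167 in the late range and -0.175 for private missense carriers, Igl calls -0.111 in the middle range and -0.0868 from 20% share. Total calls gave 64.4 from 20% share and 59.8 for any Myc call, and chromosome 19 gave -0.0669 with at least 10 SNVs. From 20% share without tumours 2 and 5, and within title ranges, the median share of private SNVs gave -0.158 and -0.215, Igl calls -0.367 and -0.209, and the percent of C>A 0.162 and 0.285. Igh calls gave -0.106 for private missense carriers without tumours 2 and 5. No gene passed after adjustment under any alternative run, which decides little for genes altered in few tumours. No paired analysis was possible because the labels give no numbers shared between carriers and non-carriers. The unknown depth limits calls of low share, and the early range, with 1 non-carrier, could not be compared alone.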
